A study of Mus musculus with 61 samples.

Results

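A set of 7 genes that mark and build the granulosa lineage of the mouse ovary was followed through single oocytes and single granulosa cells, with and without doxorubicin. They were taken by name and not by a rule on their values, but earlier results of these data were known. Foxl2, Wt1, Gata4, Nr5a1, Nr5a2 and Esr2 encode transcription factors, and Lgr5 encodes a cell surface receptor. They are 7 of the 23927 gene rows of the table, and each had a row. Granulosa cells are the somatic cells that surround and feed the oocyte, the female germ cell.

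All cells came from wild-type CD-1 mice, an outbred stock, and were collected on postnatal day 5, with solvent or drug injected intraperitoneally 6 hours earlier. The 4 groups were 16 oocytes and 16 granulosa cells from mice given solvent (control), and 16 oocytes and 13 granulosa cells from mice given doxorubicin, an anti-cancer drug that damages DNA. The unit written beside the drug's dose is not a dose unit, so no dose is given. No animal, litter or culture was named for any cell, so a group was counted as 1 sample: there were no replicates, no difference was tested, and intervals are 95% intervals for counting error only. No molecular identifiers were used, so PCR copies of 1 molecule count more than once, and spread between cells or animals is outside these intervals.

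In the early ovary, GATA4 and WT1 act in the somatic precursors of the gonad, and NR5A1 (steroidogenic factor 1) switches on genes for steroid synthesis. FOXL2 keeps granulosa cells from taking on testis character. NR5A2 (liver receptor homolog 1) is the close relative of NR5A1 that granulosa cells use for ovulation, and ESR2 (estrogen receptor beta) is the estrogen receptor of granulosa cells. LGR5 binds R-spondins, which strengthen WNT signalling, and marks cells of the ovarian surface epithelium and the pregranulosa cells that come from it.

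Total counts per cell ran from 6834594 to 31262609. Levels are counts per 1000000 total counts (CPM), either of 1 cell or of a group's summed counts. The labels were set against marker lists that leave the members out. Every oocyte had a higher summed level of oocyte markers than of granulosa markers. In the granulosa groups the reverse held for only part of the libraries: granulosa markers summed to more than oocyte markers in 11 of 16 control and 5 of 13 doxorubicin libraries, and stroma and theca markers summed to more than granulosa markers in 6 of the 29 (control 2, 8, 13, 14 and 16 and doxorubicin 13). The median oocyte marker sum was 1728 CPM over the control granulosa libraries and 8766 CPM over those after doxorubicin, against 45848 CPM in control oocytes. Blood and immune markers had a median sum of 14.8 CPM over control and 53.5 CPM over doxorubicin granulosa libraries, with 34796 CPM in doxorubicin library 15. Of 5 such markers with at least 5 CPM, 4 were higher and 1 lower 2-fold or more after doxorubicin (20.6% and 20.0% over all genes). The 4 were the hemoglobin genes Hba-a1, Hba-a2, Hbb-bs and Hbb-bt, and the 1 was Cd68 (6.99 to 0.00699 CPM). Hba-a1 reached 10 CPM in 8 of 16 control and 11 of 13 doxorubicin libraries. The label granulosa is kept below, and some results for the members are also given without these libraries. The related gene lists and the genes named from them were taken over all libraries.

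The proximal promoters of Nr5a2 and Esr2 are shown because GATA4, NR5A and FOX factors are members whose binding letters can be looked for in them. Each is the 250 bases before a RefSeq start site on GRCm38.p6, printed 5′ to 3′ along the gene, and neither overlaps an exon. The Nr5a2 window is chr1:136960449-136960698 and the Esr2 window is chr12:76177260-76177509, both on the minus strand. Capitals mark matches of the GATA letters AGATAA on either strand (TTATCT on the other).
Nr5a2: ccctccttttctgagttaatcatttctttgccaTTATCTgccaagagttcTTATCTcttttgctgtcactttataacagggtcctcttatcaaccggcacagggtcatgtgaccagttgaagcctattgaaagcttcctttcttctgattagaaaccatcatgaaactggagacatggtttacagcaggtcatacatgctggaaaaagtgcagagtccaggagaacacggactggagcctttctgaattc
Esr2: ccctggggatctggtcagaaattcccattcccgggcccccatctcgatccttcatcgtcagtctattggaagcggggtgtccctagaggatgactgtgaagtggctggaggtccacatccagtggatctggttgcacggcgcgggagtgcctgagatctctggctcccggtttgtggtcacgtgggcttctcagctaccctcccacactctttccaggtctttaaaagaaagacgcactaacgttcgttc
The printed Nr5a2 window, which adjoins the 5′ end of the gene's annotated span, holds 2 GATA matches and the Esr2 window holds none. RefSeq gives Nr5a2 a further start site inside the gene, whose window (chr1:136953631-136953880, not printed) holds none, nor does the Foxl2 window, which overlaps an exon. Over all genes, 9.99% of 32851 promoter windows of this length hold at least 1. The NR5A letters AAGGTCA (4.08% of windows) and the FOX letters TAAACA (12.03%) were found in none of these 4 windows, on either strand. A match is a string of letters only, and the absence of one says nothing about binding.

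Foxl2 (chr9:98955288-98958543, plus strand, GRCm38) encodes the forkhead factor that holds granulosa identity. In control granulosa cells its level ran from 0 to 229 CPM with a median of 14.4, and in doxorubicin granulosa cells from 0 to 320 CPM with a median of 19.7. In oocytes it ran from 0 to 5.14 CPM (median 0.535) in controls and from 0 to 18.3 CPM (median 0.179) after doxorubicin. The granulosa groups overlapped nearly in full, and part of the granulosa libraries fell inside the oocyte range. No Foxl2 read was found in 4 of 16 control and 3 of 13 doxorubicin granulosa libraries, although the gene is a defining marker of the type. Summed over each group, Foxl2 stood at 54.3 CPM (interval 53.2 to 55.4) in control and 64.7 CPM (63.4 to 66.0) in doxorubicin granulosa cells, and at 1.41 and 2.98 CPM in control and doxorubicin oocytes.

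Wt1 (chr2:105126529-105173616, plus strand) encodes the zinc finger factor of the gonad's somatic precursors. It was the member seen in most granulosa libraries: 14 of 16 control and 12 of 13 doxorubicin libraries had at least 5 counts. Its level ran from 0 to 278 CPM (median 36.3) in control granulosa cells and from 0.104 to 450 CPM (median 91.3) after doxorubicin, with the highest values in doxorubicin libraries 9, 14 and 4. Those 3 lay above every control library, and the other 10 lay within the control range. In oocytes the highest level was 12.5 CPM (control 4) and 10.6 CPM (doxorubicin 12), with medians of 0.732 and 0.0823 CPM. The group levels were 57.2 CPM (56.1 to 58.3) in control granulosa, 152 CPM (150 to 154) in doxorubicin granulosa, 2.75 CPM in control oocytes and 2.17 CPM in doxorubicin oocytes.

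Gata4 (chr14:63198922-63271692, minus strand) encodes the GATA factor that works with NR5A1 on steroid and AMH genes. Control granulosa libraries split into 13 with 130 CPM or more and 3 with no read (8, 12 and 13), with a median of 166 and a highest of 307 CPM. After doxorubicin the level ran from 0 to 283 CPM with a median of 90.1, and 7 of 13 libraries had at least 10 CPM. No doxorubicin library exceeded the highest control library. Oocytes had medians of 0.0795 CPM (control) and 0.125 CPM (doxorubicin), and 1 cell, doxorubicin oocyte 9 with 101 CPM, held 65.4% of the Gata4 counts of its group. Group levels were 154 CPM (152 to 156) and 91.0 CPM (89.5 to 92.6) in control and doxorubicin granulosa cells, against 6.29 and 7.72 CPM in the oocyte groups.

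Nr5a1 (chr2:38692656-38714542, minus strand) reached 10 CPM in 11 of 16 control and 6 of 13 doxorubicin granulosa libraries. Its level ran from 0 to 275 CPM in both groups, but the median was 73.7 CPM for controls and 0.441 CPM after doxorubicin. Doxorubicin library 8, at 275 CPM, held 53.1% of its group's Nr5a1 counts. The ranges of the granulosa groups thus overlapped in full while their middle cells lay far apart. The group level was 104 CPM for control and 47.8 CPM for doxorubicin granulosa cells, and 4.09 and 6.64 CPM in control and doxorubicin oocytes. The highest oocytes were control 5 with 22.1 CPM and doxorubicin 9 with 56.3 CPM.

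Nr5a2 (chr1:136842571-136960448, minus strand), whose promoter is printed above, ran from 0 to 200 CPM (median 21.1) in control and from 0 to 208 CPM (median 0.547) in doxorubicin granulosa cells. It reached 10 CPM in 9 of 16 and 4 of 13 libraries. As with its relative Nr5a1, the ranges overlapped and the doxorubicin median was near 0. The group levels were 54.2 CPM (control) and 33.1 CPM (doxorubicin) in granulosa cells, and 1.39 and 1.49 CPM in oocytes, where no cell passed 14.1 CPM (control oocyte 5). Of the 29 granulosa libraries, 9 had both NR5A genes at 10 CPM or more, 8 had only Nr5a1, 4 had only Nr5a2 and 8 had neither.

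Esr2 (chr12:76120419-76177259, minus strand) reached the highest level of the 7 members in a single cell, 544 CPM in control granulosa library 14, where stroma markers summed to more than granulosa markers. Its libraries were split: 9 of 16 control libraries had 13.1 CPM or more and the other 7 had at most 0.163 CPM. The median over cells was 69.9 CPM for controls and 0.185 CPM after doxorubicin, where 6 of 13 libraries had at least 10 CPM and library 8 was highest with 539 CPM. The granulosa ranges overlapped in full. Group levels were 160 CPM and 127 CPM in control and doxorubicin granulosa cells, and 4.62 and 9.12 CPM in the oocyte groups. Doxorubicin oocyte 12, with 86.2 CPM, held 58.8% of the Esr2 counts of its group.

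Lgr5 (chr10:115450311-115587780, minus strand) stood apart from the transcription factors, with a median of 0 in all 4 groups. Its counts summed to 1763 over the doxorubicin granulosa cells and to 16 over the control granulosa cells, and to 29 and 2 over the control and doxorubicin oocytes. Nearly all of the 1763 came from doxorubicin granulosa library 4 (112 CPM, 76.8% of the counts) and library 6 (31.3 CPM), followed by library 13 (5.80 CPM). The other 10 doxorubicin granulosa libraries had at most 0.0927 CPM. The highest level elsewhere was 2.81 CPM in control oocyte 9 and 1.69 CPM in control granulosa library 12.

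Libraries 4 and 6 shared a pattern over the other members. Wt1 was at 287 and 109 CPM, while Foxl2 had no read and Gata4, Nr5a1, Nr5a2 and Esr2 were at or under 0.185 CPM in both. Both also had oocyte marker sums above their granulosa marker sums. Library 6 had 4 of the 8 listed surface epithelium markers above 10 CPM. These were Upk3b at 639 CPM, Upk1b at 146 (both uroplakins), Krt7 at 668 (a keratin) and Aldh1a2 at 1233 (retinoic acid synthesis). The other 4, Msln, Lrrn4, Cdh1 and Muc16, stood at 0, 0, 0.245 and 0.00699 CPM over the doxorubicin granulosa group. In library 4, Upk3b, Upk1b, Krt7 and Aldh1a2 were at 0, 0, 0.247 and 0.412 CPM. The part of other cell types in the Lgr5 counts was not tested.

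**Figure D1:**
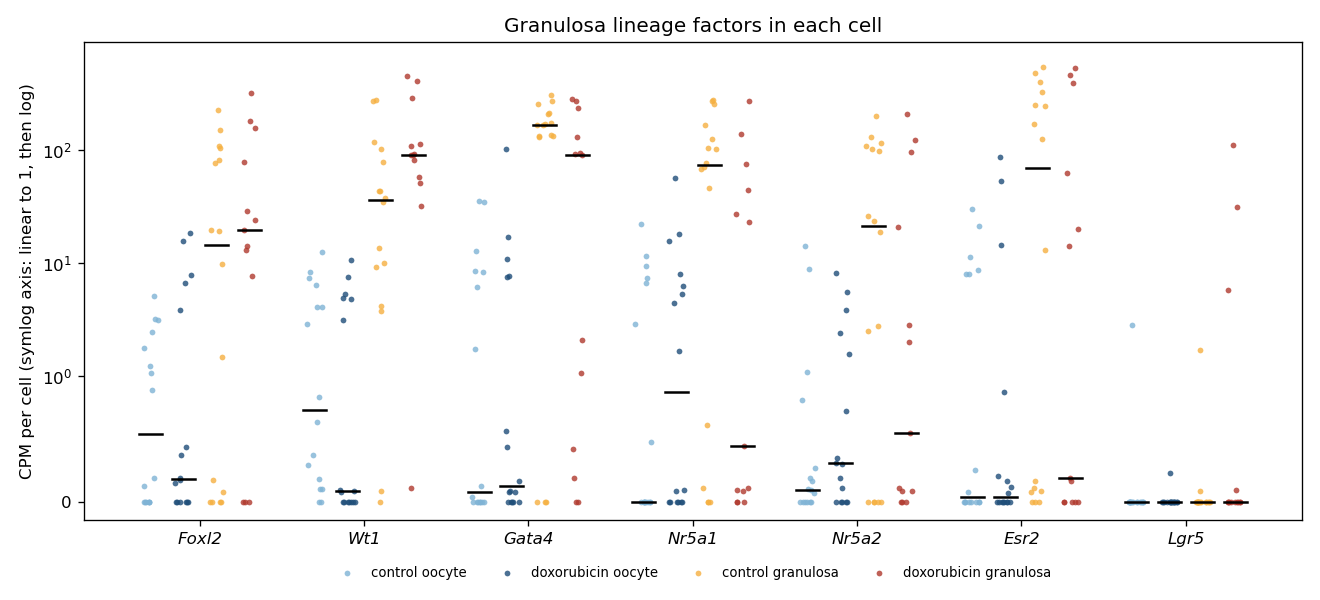
Level of each of the 7 members in each cell (1 point per cell, 61 cells; y axis in CPM, linear to 1 and logarithmic above; black bars are group medians). For Nr5a1 and Esr2 no granulosa library lies between 1 and 10 CPM, while Foxl2, Wt1, Gata4 and Nr5a2 have libraries in between, and Lgr5 passes 10 CPM in 2 doxorubicin granulosa libraries only.

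Per kilobase of the longest annotated transcript, the order in control granulosa cells was Esr2 (47.6 CPM per kb), Gata4 (45.3), Nr5a1 (34.7), Wt1 (18.5), Foxl2 (16.7), Nr5a2 (11.5) and Lgr5 (0.0186). In doxorubicin granulosa cells it was Wt1 (49.1 CPM per kb), Esr2 (37.8), Gata4 (26.8), Foxl2 (19.9), Nr5a1 (15.9), Nr5a2 (6.99) and Lgr5 (2.57). Neighbours in either order cannot be separated, since the ranges over cells overlap for every pair of the 6 transcription factor genes. Per kilobase of all exons joined, Foxl2 (16.7) stood above Wt1 (9.23) in controls, and Esr2 (37.7) above Wt1 (24.5) after doxorubicin.

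The first comparison asked how far the members separate control granulosa cells from control oocytes. All 6 members that reached 5 CPM in 1 of the groups were more than 2-fold higher in granulosa cells, and Lgr5 was below that level in both. The log2 ratios were 5.27 for Foxl2 (interval 5.10 to 5.45), 4.38 for Wt1 (4.25 to 4.50), 4.61 for Gata4 (4.53 to 4.70), 4.67 for Nr5a1 (4.56 to 4.77), 5.29 for Nr5a2 (5.11 to 5.47) and 5.11 for Esr2 (5.02 to 5.21). Their median was 4.89, against 0.03 over all 12373 genes with that level, of which 31.3% were higher 2-fold or more. The members were chosen as granulosa genes, so this direction is a check of the labels.

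Cell by cell, no member separated the groups. Of the 16 control granulosa libraries, 13 lay above the highest control oocyte for Gata4, 11 for Nr5a1, 10 for Wt1, 9 for Foxl2, 9 for Nr5a2 and 8 for Esr2. Over all genes, 0.453% had every granulosa library above every oocyte. Leaving out control oocyte 5 raised the Nr5a2 ratio to 6.40, and no other single cell moved one of these 6 ratios by more than 1.5-fold.

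After doxorubicin all 7 members passed 2-fold in granulosa cells over oocytes, against 28.2% of 12428 genes. The log2 ratios were 6.13 for Wt1 (5.98 to 6.28), 4.47 for Nr5a2 (4.29 to 4.65), 4.44 for Foxl2 (4.31 to 4.57), 3.80 for Esr2 (3.73 to 3.87), 3.56 for Gata4 (3.48 to 3.64) and 2.85 for Nr5a1 (2.76 to 2.94). Their median with Lgr5, whose 2 oocyte counts allow no firm ratio, was 4.44, against -0.02 over all genes. Wt1 was the clearest cell by cell: 12 of 13 granulosa libraries lay above every doxorubicin oocyte, against 7 for Foxl2, 4 for Gata4, 4 for Nr5a2, 3 for Nr5a1 and 3 for Esr2. Over all genes, 0.193% had every granulosa library above every oocyte. Single cells carried part of these values. Without doxorubicin oocyte 9 the Gata4 ratio was 5.02 and the Nr5a1 ratio 3.56, without oocyte 12 the Esr2 ratio was 4.99, and without oocyte 2 the Nr5a2 ratio was 5.16. Without granulosa library 8 the Nr5a1 ratio was 1.89, without library 12 the Nr5a2 ratio was 3.78, and without library 14 the Foxl2 ratio was 3.77. Every one of these stayed past 2-fold.

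The second question was how the members differed between doxorubicin and control granulosa cells. Wt1 and Lgr5 were more than 2-fold higher after the drug, Nr5a1 was more than 2-fold lower, and Foxl2, Gata4, Nr5a2 and Esr2 stayed within 2-fold. Over all 12194 genes that reached 5 CPM in 1 of these groups, 20.6% were higher and 20.0% lower 2-fold or more, so 3 of 7 members past 2-fold is near the 40.6% of all genes. The members' median log2 ratio was -0.33, against -0.03 over all genes.

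The Wt1 log2 ratio was 1.41 (1.37 to 1.44), and it ran from 1.12 without doxorubicin library 9 to 1.72 without control library 12. In the libraries with granulosa markers above oocyte markers (11 control, 5 doxorubicin) it was 1.17, and in those with granulosa markers above both oocyte and stroma markers (11 and 4) it was 1.32. The group level of Wt1 was thus higher after doxorubicin in each of these sets, but the sets are small. In the last one the 4 doxorubicin libraries stood at 411 (library 14), 90.9 (8), 58.4 (16) and 32.1 CPM (15). The first set adds doxorubicin library 13, at 81.6 CPM. Both values lean on library 14, and neither set was repeated without it. All other doxorubicin libraries of the 2 sets lay within the range of their control libraries. Of 8 surface epithelium markers, the 4 with at least 5 CPM in a granulosa group were all higher 2-fold or more. The share over all genes was 20.6%, and the median log2 ratio of the 4 was 4.85. Upk1b reached 10 CPM in doxorubicin library 6 only, Upk3b in doxorubicin libraries 6 and 15, and Krt7 was highest in library 6. Aldh1a2 reached 10 CPM in 8 libraries of each granulosa group. The summed surface epithelium markers ran from 0 to 1153 CPM (median 111) over control and from 0.104 to 2688 CPM (median 89.2) over doxorubicin granulosa libraries, with Msln at 0 in both groups. Over the 29 libraries Wt1 had a Spearman rho of 0.37 with that sum, its highest among the marker lists. The sum is largely 1 gene in several libraries. In control library 12 and doxorubicin libraries 9 and 13 all of it was Aldh1a2, at 1153, 1004 and 764 CPM. Upk3b had no read in 24 of the 29 libraries and Krt7 in 23. The part of surface epithelium cells in the Wt1 value was not tested. For Lgr5 the log2 ratio was 7.11 (6.41 to 7.92), or 5.13 without library 4 and 2.71 without libraries 4 and 6, and without control library 12 the control group held 1 count. Among libraries with granulosa markers above both other sums it was -0.99, with levels far under 5 CPM. The Lgr5 value is therefore that of a few libraries.

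The Nr5a1 log2 ratio was -1.12 (-1.16 to -1.08). It came to -2.07 without doxorubicin library 8, and to between -0.99 and -0.92 without any 1 of doxorubicin libraries 4 and 14 and control libraries 6 and 10. In the libraries with granulosa markers above oocyte markers it was -0.29, and with granulosa markers above both sums -0.02. Nr5a1 was thus lower in the doxorubicin group as a whole and nearer level in these 2 sets of libraries. The last set leans on few doxorubicin libraries: library 8 stood at 275 CPM and library 14 had no read. Across the 29 granulosa libraries, Nr5a1 had a Spearman rho of -0.51 with the summed oocyte markers, a description over cells that share no known animal.

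The other 4 transcription factor genes stayed within 2-fold, with log2 ratios of 0.25 for Foxl2 (0.21 to 0.30), -0.76 for Gata4 (-0.79 to -0.73), -0.71 for Nr5a2 (-0.76 to -0.66) and -0.33 for Esr2 (-0.36 to -0.31). Foxl2 turned to -0.42 without doxorubicin library 14, which held 42.6% of its group's counts, and to -0.07 where granulosa markers exceeded stroma markers. It came to 0.61 without control library 4, and stayed positive in the libraries with granulosa markers above oocyte markers or above both sums. Both of these sets hold doxorubicin library 14, at 320 CPM, and their other doxorubicin libraries had at most 79.0 CPM. Neither set was repeated without library 14, so their sign may be that of 1 library. Gata4 came to -1.05 without doxorubicin library 9 and to -0.63 without doxorubicin library 14. Nr5a2 came to between -1.41 and -1.02 without any 1 of doxorubicin libraries 8, 12 and 15, and to -0.36 without control library 6. Esr2 turned to 0.31 in the libraries with granulosa markers above oocyte markers. For the 3 nuclear receptor genes the medians over cells lay further apart than the sums: the difference of median log2(CPM + 1) was -5.69 for Nr5a1, -5.16 for Esr2 and -3.83 for Nr5a2, and 7 of 13 doxorubicin libraries were under 1 CPM for each.

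**Figure D2:**
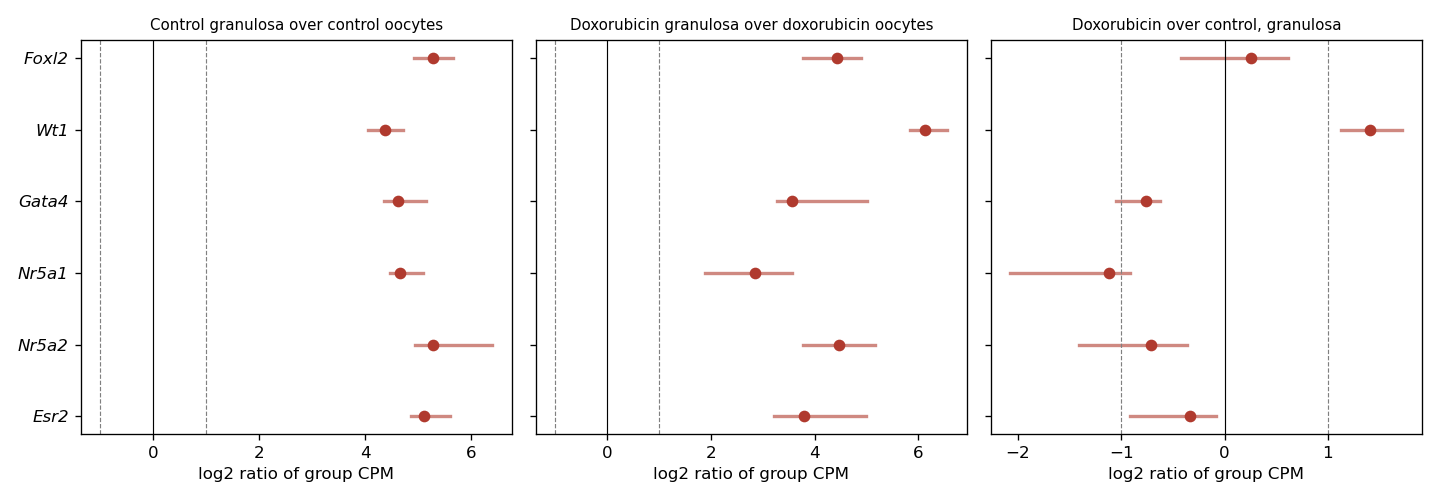
Log2 ratio of group CPM for the 6 transcription factor genes in 3 comparisons (points), with the range over leaving out each cell in turn (bars) and dashed lines at 2-fold. Ratios over oocytes stay above 1 throughout, and between the granulosa groups the Wt1 range stays above 1 while the Foxl2 range crosses 0.

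Most granulosa libraries held several members. At 10 CPM or more, control libraries had a median of 3.5 of the 7 members and doxorubicin libraries a median of 3. Of all 29, 2 libraries had 1 member at that level, 5 had 2, 8 had 3, 5 had 4, 3 had 5, 6 had 6 and 0 had 7. Wt1 and Gata4 reached it together in 17 of 29 libraries, and Foxl2 and Wt1 in 14. Over all 29 the pairs of members had Spearman rho values from -0.44 (Gata4 and Lgr5) to 0.42 (Foxl2 and Nr5a2), so the 7 genes did not run in parallel there. Within the groups the values spread wider. They ran from -0.53 (Esr2 and Lgr5) to 0.60 (Foxl2 and Nr5a2) in control libraries. In doxorubicin libraries they ran from -0.65 (Nr5a2 and Lgr5) to 0.69 (Gata4 and Nr5a2). In libraries where stroma markers summed to more than granulosa markers, Foxl2 reached 10 CPM in 2 of 6 and Nr5a2 in 1 of 6, against 15 and 12 of the other 23. Gata4 reached it in 4 of 6 and 16 of 23. Nr5a2 had the highest rho of the 7 members with the summed granulosa markers, 0.60 over 29 libraries, and Wt1 the lowest of the 6 transcription factor genes, 0.09. All of these describe cells of 2 groups with no known animal.

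**Figure D3:**
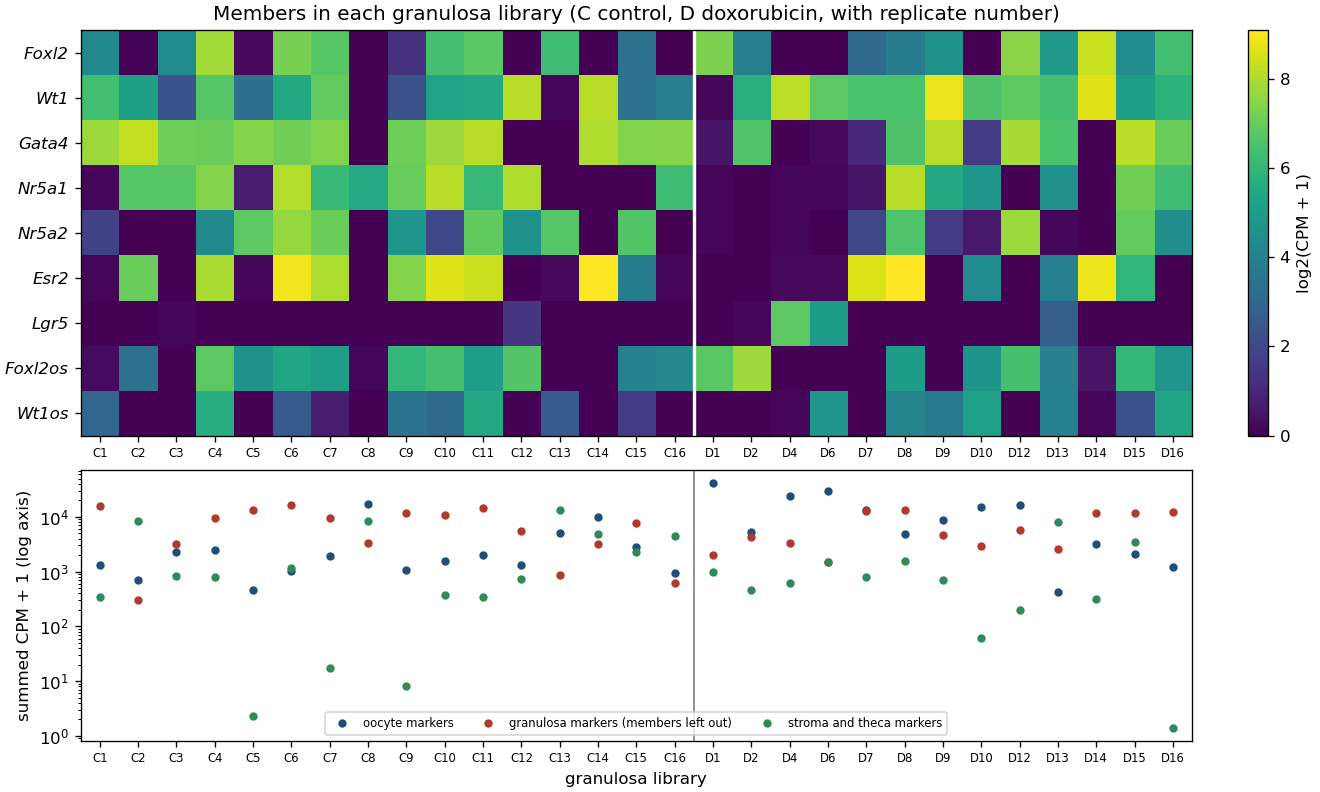
Upper panel: log2(CPM + 1) of the 7 members and 2 antisense neighbours in each of 29 granulosa libraries. Lower panel: summed CPM + 1 of oocyte, granulosa and stroma markers in the same libraries (log axis). Doxorubicin libraries 4 and 6 show Lgr5 and Wt1 without Foxl2, and blue points lie above red ones in 8 of 13 doxorubicin libraries.

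Foxl2 and Wt1 have an antisense neighbour with reads of its own, and the library kit is not stated to keep strand. Foxl2os overlaps the Foxl2 exon by 12 bases, so reads there cannot be told apart. It stood at 33.7 CPM in control and 41.4 CPM in doxorubicin granulosa cells and at 1.19 and 0.789 CPM in oocytes. Both genes reached 10 CPM in 12 of 29 granulosa libraries, Foxl2 alone in 5 and Foxl2os alone in 6, as in control library 12 with 99.0 CPM of Foxl2os and no Foxl2. Wt1os lies 18 bases from Wt1 without overlap and stood at 8.15 and 11.2 CPM in the granulosa groups. Nr5a1os, which overlaps the span but no exon of Nr5a1, had 11 counts in all, from control granulosa library 4.

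For each member with reads in enough granulosa libraries, the genes with the most similar levels were ranked among 8934 genes by Spearman rho over 29 libraries. The first was Ndufa6 for Wt1 (0.74), Copg1 for Gata4 (0.69), Rhoa for Nr5a1 (0.74), Kctd14 for Nr5a2 (0.72) and Slc44a3 for Esr2 (0.72). The next were Plxnb2 and Gm49708 for Wt1, and Rcc1 and Epdr1 for Gata4. Pygl and Gtf2h3 were among the leading genes for Foxl2 (both 0.71). For the other members they were Usp10 and Cnn3 (Nr5a1), Chst8 and Haus7 (Nr5a2), and Hddc2 and Fam13a (Esr2). No member was among the leading genes of another. These are the highest of 8934 values and describe these libraries only. Lgr5 had 5 counts in 4 libraries, too few to rank.

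In oocytes the 6 transcription factor genes stood between 1.39 and 9.12 CPM in the 2 groups and Lgr5 at 0.148 CPM or less, and 3 of 7 members reached 5 CPM in 1 of the groups. None of the 3 passed 2-fold between doxorubicin and control oocytes, where 6.30% of 11119 genes were higher and 2.45% lower. The log2 ratios were 0.98 for Esr2 (0.86 to 1.10), 0.70 for Nr5a1 (0.57 to 0.83) and 0.30 for Gata4 (0.18 to 0.41), with a median of 0.70 against 0.01 over all genes. Each rested on single cells. Without doxorubicin oocyte 9, Gata4 came to -1.16 and Nr5a1 to -0.02, and without oocyte 12, Esr2 came to -0.21. Without control oocyte 7, Esr2 came to 1.47, and without control oocyte 5, Nr5a1 came to 1.13. The Esr2 ratio lay so near 1 that it passed 2-fold in 19 of 32 such repeats.

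The summed level of the 7 members had a median of 9.88 CPM over control oocytes and of 14.8 CPM after doxorubicin. It moved with the granulosa marker sum: over 32 oocytes the Spearman rho was 0.76, and it was 0.62 with the stroma and theca sum. The 3 oocytes with the highest granulosa marker sums, doxorubicin 9, 11 and 12 at 3842, 3307 and 2635 CPM, also had the 3 highest member sums of the 32, 187, 96.2 and 105 CPM. Without these 3 cells the log2 ratios came to -2.02 for Esr2, -1.54 for Gata4 and 0.00 for Nr5a1. Control oocyte 5 departed from the pattern, with 92.8 CPM of members beside 156 CPM of granulosa and 838 CPM of stroma and theca markers. Whether these reads came from attached somatic cells was not tested.

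**Figure D4:**
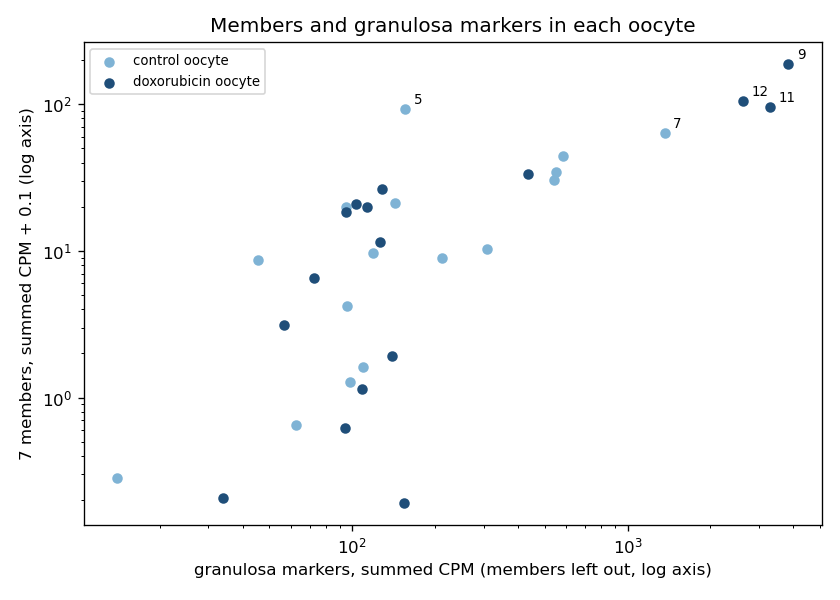
Summed CPM + 0.1 of the 7 members against the summed CPM of granulosa markers in each of 32 oocytes (both axes logarithmic; labels give replicate numbers). Doxorubicin oocytes 9, 11 and 12 lie at the upper right, and control oocyte 5 lies above the trend.

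Partner genes of these factors were described from lists of related genes. Of 20 regulators and cofactors, 18 had at least 5 CPM in a granulosa group, of which 3 were higher and 5 lower 2-fold or more after doxorubicin, with a median log2 ratio of 0.07. These counts are near the 20.6% higher and 20.0% lower of all genes. Foxo1, a forkhead factor of insulin and FSH signalling, stood at 56.5 CPM in control and 83.1 CPM in doxorubicin granulosa cells, and Gata6, the partner of Gata4, at 56.2 and 65.3 CPM. Cbx2, a Polycomb gene of sex determination, went from 28.3 to 0.035 CPM (5095 to 5 counts), being at 10 CPM or more in 4 of 16 control and 0 of 13 doxorubicin libraries. Six4, with the largest upward ratio (0.706 to 5.60 CPM), reached 10 CPM in 1 library, doxorubicin 10, and its log2 ratio of 2.99 turned to -0.48 without it.

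Genes that carry out granulosa functions include textbook targets of the members. Of 13 with at least 5 CPM, 0 were higher and 5 lower 2-fold or more, against 20.6% higher and 20.0% lower over all genes, with a median log2 ratio of -0.71 against -0.03. Hsd3b1, an enzyme of steroid synthesis, went from 1801 to 758 CPM, a log2 ratio of -1.25. The ratio came to -3.19 without doxorubicin library 8 and to -0.88 (within 2-fold) without control library 11. Among doxorubicin granulosa libraries, library 8 had the most Nr5a1, the most Esr2 and the highest granulosa marker sum. A link of Hsd3b1 to any member was not tested. Cyp19a1, the aromatase that makes estrogen, had 4858 counts (27.0 CPM) in control granulosa cells and 1 count in doxorubicin granulosa cells. It reached 10 CPM in only 4 of 16 control libraries and in 0 of 13 after doxorubicin. Inha, the inhibin alpha subunit, stood at 3290 and 2880 CPM, and the cell cycle inhibitor Cdkn1b at 82.1 and 117 CPM, both within 2-fold.

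The WNT and R-spondin genes are the pathway of Lgr5. Of 12 with at least 5 CPM, 6 were higher and 1 lower 2-fold or more after doxorubicin, against the same 20.6% and 20.0% of all genes, with a median log2 ratio of 0.57. Rnf43, a ubiquitin ligase that LGR5 and R-spondin hold back, went from 1.74 to 41.6 CPM, with 220 CPM in library 4, 196 in library 9 and 77.3 in library 10. Nearly all of its 313 control counts came from library 12. The log2 ratio of 4.58 came to 3.85 without doxorubicin library 4, and without control library 12 it was 11.2 with the control group set to the floor of 3 counts, which is no firm ratio. Library 4 was also the highest for Lgr5, while library 6 had no Rnf43 read. Axin2, a WNT target, went from 9.31 to 1.89 CPM, but 1 control library, 12, had 180 CPM and the log2 ratio of -2.30 turned to 2.03 without it. Ctnnb1, which encodes beta-catenin, stood at 730 and 751 CPM, and Wnt6 at 191 and 148 CPM.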

How the data were processed

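The data are single-cell RNA sequencing of 61 mouse ovarian cells, made from full-length cDNA amplified with a SMART-seq kit, per the labels' protocols. The authors deposited 1 table of estimated counts, and 31.9% of its nonzero values differ from a whole number by more than 0.0005. The submitters' processing notes name mm10, Partek, Bowtie2, HISAT2 and DESeq2, with no versions or roles. Whether counting used strand is not given in the sources used here. Per the series text, doxorubicin oocyte 4 has no raw data any more; its column was used. A total of 22 rows with date-like names held 0.144% of counts and stayed in totals only.

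Here the estimated counts were rounded, summed over the cells of a group and divided by the group total to give CPM. Ratios are log2 of group CPM, with a group under 3 counts set to 3, and a gene was called at a log2 ratio of 1 with at least 5 CPM in either group. Intervals are exact Poisson for CPM and exact conditional binomial (Clopper-Pearson) for ratios, at 95%. No doublet caller was run, and no cell was dropped (all had at least 5000 genes). Shares of cells use at least 5 counts, and were repeated after thinning to 5000000 counts per cell. Spans come from GENCODE M21 (GRCm38) and promoters from RefSeq, where 3 of the 7 members matched: Foxl2, Nr5a2 and Esr2. The Foxl2 window overlaps an exon and is not printed.

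The members and lists were chosen with earlier results of these data known. Genes named were all members, the 3 most similar genes for each member with 5 counts in at least 10 granulosa libraries, and up to 4 per list (the 2 most abundant in control granulosa cells, the largest rise and the largest fall). A gene named by this rule is not reported here. Surface epithelium genes, Rnf43 and Axin2 by library, and antisense neighbours were looked at after the data were seen. Alternatives were other ways to average cells, edgeR and DESeq2 scaling, filters, marker-based sets of cells and leaving out each cell. The calculation was tested on simulated data. Python 3.11.15, numpy 2.4.6, pandas 2.3.3, scipy 1.17.1, matplotlib 3.10.9, R 4.3.3, edgeR 4.0.16 and DESeq2 1.42.0 were used.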

Additional observations from a re-analysis of the deposited data

How the results depend on the processing

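No paired analysis was possible because the values come from no test and the replicate numbers name cells, not animals. Scaling with edgeR or DESeq2 factors changed no call. For control granulosa over control oocytes the median log2 ratio was 4.67 with no filter, 5.23 with oocytes under 200 CPM of granulosa markers, and 5.16 with granulosa libraries restricted by oocyte markers, by stroma markers or by both, with 6 calls throughout. For doxorubicin granulosa over doxorubicin oocytes the median was 4.28 with equal weight per cell, 4.82 with the oocyte marker restriction, 5.12 with both, 6.50 with oocytes under 200 CPM and 5.43 without oocytes 9, 11 and 12. On medians over cells it was 0.25 with 3 calls, and Nr5a1 reversed to -0.24. For doxorubicin over control granulosa cells the median was -0.48 with equal weight, -0.87 on medians over cells, -0.47 with the stroma restriction, 0.0084 with the oocyte restriction and 0.30 with both, and -0.27 without libraries 4 and 6. The count of calls was 1 under the last 3 sets, and Lgr5 reversed to -0.99 with both restrictions. For oocytes the median was 0.83 with equal weight, 0.060 on medians over cells, 0.50 with a limit of 1 CPM (1 call), 0.30 with no filter (2 calls) and -1.54 without oocytes 9, 11 and 12 (1 call). With oocytes under 200 CPM of granulosa markers no member had 5 CPM, so there is no median. Leaving out each cell gave 6 to 6, 6 to 7, 1 to 4 and 0 to 2 calls and medians of 4.74 to 5.17, 3.77 to 4.89, -0.76 to -0.083 and -0.053 to 1.11, in the same order of comparisons. The sets by stroma markers, by both lists and without named cells, and the 10 CPM limit, were chosen after seeing the data. Except for the smaller number of cells or genes that a setting itself brings, the cause was not tested. With 1 sample per group, the number of cells and of animals, which is not known, limits these values. After thinning to 5000000 counts per cell, Lgr5 had at least 5 counts in the same number of libraries of each group.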

Other observations

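Genes of the testis pathway, which FOXL2 is known to hold down in the ovary, had reads in part of the granulosa libraries. Of 5 with at least 5 CPM in either granulosa group, 0 were higher and 2 lower 2-fold or more after doxorubicin, against 20.6% higher and 20.0% lower over all genes, with a median log2 ratio of -0.39. Sox9, a transcription factor gene of testis development, stood at 21.7 CPM in control and 2.40 CPM in doxorubicin granulosa cells, and reached 10 CPM in 5 of 16 and 1 of 13 libraries. Its log2 ratio was -3.17 and ran from -4.96 without doxorubicin library 15 to -2.38 without control library 3. Ptgds, a prostaglandin D synthase gene, stood at 74.0 and 33.5 CPM, and at 203 and 166 CPM in the oocyte groups. Its log2 ratio of -1.14 between the granulosa groups came to -0.84, within 2-fold, without control library 8. Gadd45g stood at 265 and 202 CPM. Sox8, at 6.55 and 6.49 CPM, reached 10 CPM in 1 library of each granulosa group.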
